A study of Mus musculus with 16 samples.

Results

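Gene expression in 7 mammary tumours of transgenic mice carrying STAT5ca, a constitutively active form of the transcription factor STAT5, was compared with that in 3 normal mammary glands. The samples were taken by their titles and make up 10 of the 16 arrays of the series. The other 6 arrays, of tumours with a truncated STAT5, entered 1 alternative fit only. All mice were on the FVB/N background. Tumours are named by the number in their titles (STAT5ca_123, STAT5ca_124, STAT5ca_213, STAT5ca_159, STAT5ca_169, STAT5ca_171 and STAT5ca_177) and glands as gland 1, 4 and 6. Total RNA was hybridised to an Affymetrix mouse array with 22690 probe sets. The stage of the glands, the age of the mice, the genotype of the gland donors, the promoter of the transgene, the number of founder lines and the tumour histology are not given in the sources used here. No label says that the samples came from separate mice, so that p-values measure only the spread between these samples.

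STAT5A and STAT5B are activated in mammary epithelium when prolactin binds its receptor and the kinase JAK2 phosphorylates them. The activated dimers enter the nucleus and bind DNA at milk protein genes and at genes of feedback inhibitors such as CISH and SOCS2. In the mammary gland STAT5 is known for driving the growth, survival and secretory differentiation of alveolar cells.

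Signals are the deposited array intensities, and a change is the difference of group means of log2(signal + 8), tumour minus gland, given ± its standard error. The offset of 8 makes the change of dim genes an underestimate. Adjusted p-values are limma's, two-sided, with the Benjamini-Hochberg method over 9003 genes. A gene is said to rise or fall where its adjusted p was under 0.05 with all 10 arrays, unless the fit without 1 array is named. Array medians ran from 57.3 to 90.7. For beta-actin, the 3' over 5' probe set ratio, which rises as RNA degrades, was 1.07 to 1.25 in the glands and 1.76 to 5.38 in the tumours. It was highest in STAT5ca_124, STAT5ca_213 and STAT5ca_123. Its part in the differences was not tested beyond the fits that hold it as a covariate. Keratin 8, a keratin of luminal epithelial cells, had signals of 1599, 708 and 1879.6 in glands 1, 4 and 6 and of 3836 to 5376 in 6 tumours, but of 25.3 in STAT5ca_177. This array had a mean correlation of 0.657 with the other tumours, against 0.807 to 0.858 for those, and each result was computed with and without it.

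With all 10 arrays, 432 genes were higher in the tumours, 4.80% of those tested, and 1067 were lower, 11.9%. Without STAT5ca_177, 1187 genes were higher, 13.2%, and 1659 were lower, 18.4%. All 1499 genes called with 10 arrays were called in the same direction without STAT5ca_177, and 755 more were called higher and 592 more lower. With 10 arrays the change reached 2-fold in 269 of the higher and 962 of the lower genes. In 613 genes, 6.81%, every tumour lay above every gland, and in 1223, 13.6%, every tumour lay below. The median change over all genes was -0.03 with 10 arrays and 0.00 without STAT5ca_177. Scaling the arrays to a common median moved that median to 0.25 and the split to 844 higher and 750 lower. Quantile normalization gave 669 higher and 1000 lower. A stricter filter, at the 60th percentile of the signals (134.8), left 6951 genes to test. A list count can fall under it because dim members are no longer tested. Without gland 1, 4 or 6 the calls numbered 783, 695 and 926, and with the actin ratio as a covariate 587, of which 61 were higher. Array quality weights, which let limma count unlike arrays less, gave 4647 calls. That covariate differs between the groups without overlap, and the ratio and the tumour state cannot be told apart in this design.

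**Figure D1:**
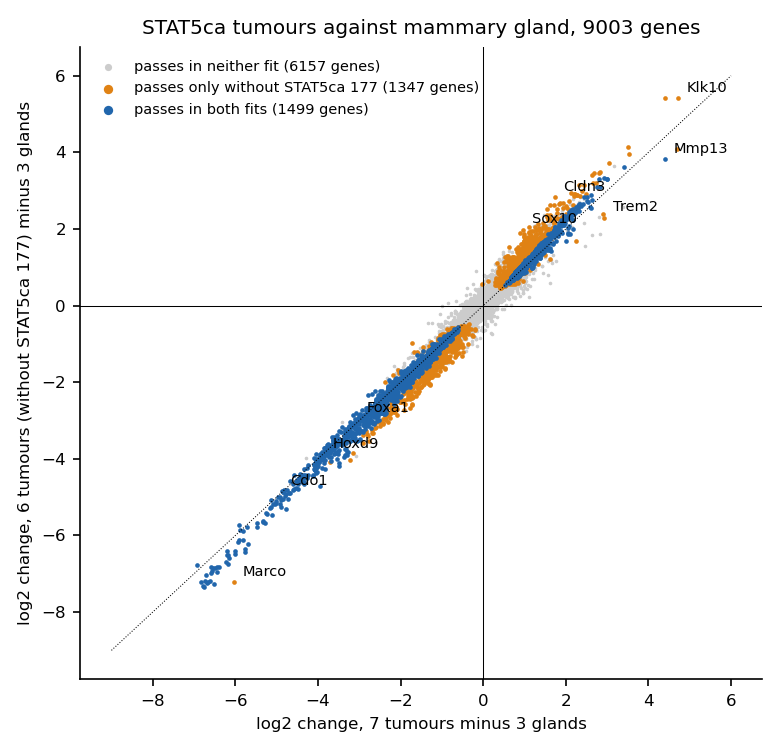
Change in log2(signal + 8) of each of 9003 genes with all 7 tumours (horizontal axis) and with 6 tumours (vertical axis, without STAT5ca_177), tumour minus gland. The 1499 genes called in both fits lie close to the dotted line of equality, and the 1347 genes called only without STAT5ca_177 lie mostly farther from 0 on the vertical axis.

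Genes of tissues that a whole gland holds beside epithelium were lower in all tumours. Of skeletal muscle genes 105 of 115 fell, of fat genes 72 of 116, of T and NK cell genes 44 of 71, of B and plasma cell genes 34 of 50, and of endothelial genes 19 of 25. Over all genes 11.9% fell. None of these lists had a gene that rose with 10 arrays. Without STAT5ca_177 the falls numbered 108, 84, 61, 41 and 20 in the same order, where 18.4% of all genes fell. In that fit 1 fat gene and 1 B or plasma cell gene rose. From the fit of 10 arrays, the fat count became 45 without gland 1 and 44 without gland 4. Under the actin covariate that of B and plasma cell genes became 19 and that of endothelial genes 12. Many of these genes were above the signal minimum of 35.4 in fewer than 3 tumours, so that they were tested because of the glands. They were 61 of the muscle, 40 of the T and NK cell, 24 of the fat, 21 of the B and plasma cell and 3 of the endothelial genes. Such genes could hardly have been called higher, and the counts are a description. In no tumour above the minimum were 29 of the muscle, 10 of the T and NK cell and 9 of the fat genes. The mean log2 level of the muscle list stood at -4.65 to -3.07 relative to the gland mean across the tumours, that of the fat list at -2.66 to -1.46, that of the T and NK cell list at -3.39 to -1.39 and that of the endothelial list at -2.20 to -1.34. In bulk tissue, fewer cells of a type and less RNA per cell cannot be told apart. The part of these tissues in the other changes was not tested.

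Genes of cell division rose together. Of the 32 mitosis and spindle genes tested, 26 were higher and none lower, where 4.80% of all genes were higher, with a median change of 2.05. Without STAT5ca_177 all 32 were higher and the median was 2.36. The count of 26 became 9 without gland 4 or 6 and 0 under the actin covariate. With that covariate and without STAT5ca_177 it was 22. The mean level of the list was 0.44 above the gland mean in STAT5ca_177, close to the 0.40 of gland 1, and 1.83 to 2.77 above it in the other 6 tumours. Promoters of 4 of the genes are shown because many genes of late cell division share a short element near the start site, the cell cycle homology region, through which the DREAM and MuvB complexes act. Sequences are RefSeq's for build GRCm38.p6, 5' to 3' on the gene's strand, ending just before the start site, with the element (TTTGAA or TTCGAA, searched on both strands) in capitals.
Cdk1 (chr10:69352913-69353032, minus strand): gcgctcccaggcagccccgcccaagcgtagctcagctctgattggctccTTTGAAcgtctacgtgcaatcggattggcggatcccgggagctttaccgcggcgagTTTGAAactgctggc
Ube2c (chr2:164769809-164769928, plus strand): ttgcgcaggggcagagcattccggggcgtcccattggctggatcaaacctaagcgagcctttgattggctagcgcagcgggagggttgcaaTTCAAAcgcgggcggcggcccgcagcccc
Prc1 (chr7:80294356-80294475, plus strand): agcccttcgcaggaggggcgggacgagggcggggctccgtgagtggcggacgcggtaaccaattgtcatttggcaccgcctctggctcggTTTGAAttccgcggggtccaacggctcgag
Psrc1 (chr3:108383718-108383837, plus strand): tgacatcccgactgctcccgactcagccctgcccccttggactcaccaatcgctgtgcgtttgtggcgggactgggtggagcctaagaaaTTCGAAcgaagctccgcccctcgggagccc
The element lay 15 and 71 bases before the start of Cdk1, 29 before that of Ube2c and 30 before those of Prc1 and Psrc1. For a gene with several starts, the start with the most matches is shown. Within 250 bases before a start the element was present in 12 of 27 genes of the list, 44.4%. Among all genes with a RefSeq promoter it was present in 5284 of 27025, 19.6%. A gene was counted if any of its promoters held the element. A match is a string of letters and does not show binding.

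Cdk1, the kinase that starts mitosis, had signals of 158, 84.7 and 106 in glands 1, 4 and 6 and of 224 to 1240.2 with a median of 839 in the tumours. Every tumour lay above every gland, with STAT5ca_177 the lowest tumour, and the change was 2.61 ± 0.45 (adjusted p = 0.0029), and 2.89 ± 0.25 (adjusted p = 3.5e-05) without STAT5ca_177. Ube2c, the ubiquitin-conjugating enzyme of the anaphase-promoting complex, had signals of 176.8, 98.6 and 135 in glands 1, 4 and 6 and of 223 to 1746 with a median of 1133 in the tumours. Its change was 2.75 ± 0.54 (adjusted p = 0.0058), and 3.09 ± 0.28 (adjusted p = 4.3e-05) without STAT5ca_177. Spc25, a kinetochore protein that holds microtubules, had signals of 51.9, 38.5 and 52.5 in glands 1, 4 and 6 and of 109 to 952 with a median of 511 in the tumours and changed by 2.997 ± 0.54 (adjusted p = 0.0037), and 3.31 ± 0.33 (adjusted p = 8.6e-05) without STAT5ca_177. Prc1, which bundles microtubules of the central spindle, changed by 2.36 ± 0.46 (adjusted p = 0.0057), and 2.59 ± 0.35 (adjusted p = 4.4e-04) without STAT5ca_177, and Psrc1, a microtubule regulator, by 2.83 ± 0.54 (adjusted p = 0.0049), and 3.09 ± 0.41 (adjusted p = 4.4e-04) without STAT5ca_177. Tpx2, an activator of Aurora A at the spindle, rose by 2.03 ± 0.40 (adjusted p = 0.0060), and Cdca3, a mitotic entry factor, by 2.42 ± 0.42 (adjusted p = 0.0029). In all of these the 7 tumours and the 3 glands did not overlap. Birc5, which encodes survivin of the chromosomal passenger complex, rose by 2.51 ± 0.55 (adjusted p = 0.011), Pbk, a mitotic kinase, by 2.93 ± 0.59 (adjusted p = 0.0065), and Anln, an actin-binding protein of the cleavage furrow, by 2.27 ± 0.49 (adjusted p = 0.011). Mki67, the proliferation antigen, had signals of 419.6, 288 and 336 in glands 1, 4 and 6 and of 301 to 1829 with a median of 1105 in the tumours. STAT5ca_177 lay within the glands, and Mki67 rose only without it, by 1.90 ± 0.29 (adjusted p = 9.5e-04), against 1.60 ± 0.50 (adjusted p = 0.052) with 10 arrays. Bub1b, a spindle checkpoint kinase, rose likewise only without it, by 1.81 ± 0.31 (adjusted p = 0.0018). Mki67 and Bub1b kept their call when any further array was left out in the fit without STAT5ca_177. As a covariate in the fit without STAT5ca_177, the actin ratio left Mki67 past the threshold and ended the call of Bub1b (adjusted p = 0.083). Cdk1, Ube2c, Spc25, Prc1, Psrc1, Tpx2 and Cdca3 kept their call when any single array was left out. Birc5 lost its call without gland 4 or 6, with an adjusted p of up to 0.058, and Pbk lost its call without gland 4, with an adjusted p of up to 0.0501. Anln lost its call without gland 4, with an adjusted p of up to 0.071. Adding the actin ratio as a covariate to the fit of 10 arrays left none of them past the threshold (adjusted p from 0.059 to 0.33). With that covariate but 6 tumours all of them passed (adjusted p from 0.0018 to 0.024).

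Of 32 DNA replication genes, 12 were higher and none lower, against 4.80% of all genes higher, and 22 were higher without STAT5ca_177, with medians of 1.06 and 1.25. The count of 12 became 4 without gland 1, 4 or 6, 1 under the actin covariate and 19 under scaling to a common median, or 7 with that covariate and without STAT5ca_177. Pole2, a subunit of the leading-strand DNA polymerase, had signals of 132, 119.7 and 102 in glands 1, 4 and 6 and of 206 to 341 with a median of 301 in the tumours, with all tumours above all glands, and changed by 1.27 ± 0.20 (adjusted p = 0.0017), and 1.27 ± 0.20 (adjusted p = 0.0011) without STAT5ca_177. Cdc6, which loads the replicative helicase, changed by 1.62 ± 0.31 (adjusted p = 0.0052), and 1.76 ± 0.24 (adjusted p = 5.5e-04) without STAT5ca_177, and Rfc5, a subunit of the clamp loader, by 1.45 ± 0.26 (adjusted p = 0.0036), and 1.58 ± 0.19 (adjusted p = 2.7e-04) without STAT5ca_177. The helicase subunits Mcm5 and Mcm7 rose only without STAT5ca_177, by 1.70 ± 0.36 (adjusted p = 0.0058) and 1.29 ± 0.26 (adjusted p = 0.0043). In the list of nucleotide synthesis 4 of 20 genes were higher and 1 lower. The higher count became 1 without gland 1, 4 or 6, 2 without STAT5ca_171 and 0 under the actin covariate, and the lower 0 without gland 1, 4 or 6 and 0 under scaling to a common median. Thymidine kinase Tk1, which salvages thymidine, had signals of 99.2, 110.2 and 76.9 in glands 1, 4 and 6 and of 181 to 963 with a median of 539 in the tumours and changed by 2.30 ± 0.41 (adjusted p = 0.0034), and 2.54 ± 0.26 (adjusted p = 8.5e-05) without STAT5ca_177. Rrm2, the regulated subunit of ribonucleotide reductase, had a signal of 202 in STAT5ca_177, close to the 202 of the lowest gland, and 740.5 to 1293 in the other tumours, and rose only without that array, by 1.94 ± 0.25 (adjusted p = 3.8e-04). Of repair and checkpoint genes 3 of 21 were higher with 10 arrays and 11 without STAT5ca_177, none lower. The count of 3 became 1 without gland 1, STAT5ca_123, STAT5ca_213, STAT5ca_159 or STAT5ca_171, 0 without gland 4 or 6, 0 under the actin covariate, 6 under scaling to a common median, 6 under quantile normalization, 1 under no filter, 1 under the filter at the 60th percentile and 5 under the model of 3 groups. Exo1, an exonuclease of mismatch repair, rose by 1.80 ± 0.45 (adjusted p = 0.022), and the checkpoint kinase Chek1 only without STAT5ca_177, by 1.57 ± 0.31 (adjusted p = 0.0042). Of chromatin genes 2 of 24 were higher with 10 arrays, and 10 without STAT5ca_177, where 13.2% of all genes were higher. The second count became 6 without gland 6 and 3 under the actin covariate. Chaf1b, a subunit of the factor that places histones on new DNA, had signals of 49.2, 40.6 and 40.5 in glands 1, 4 and 6 and of 120.1 to 243 with a median of 185 in the tumours, with no overlap, and changed by 1.87 ± 0.24 (adjusted p = 4.0e-04), and 1.91 ± 0.23 (adjusted p = 2.9e-04) without STAT5ca_177. Ezh2, the methyltransferase of histone H3 that silences genes, rose only without STAT5ca_177, by 0.93 ± 0.21 (adjusted p = 0.0078). Holding the actin ratio as a covariate without STAT5ca_177 left Rrm2 past the threshold and ended the call of Mcm5, Mcm7, Chek1 and Ezh2 (adjusted p from 0.076 to 0.24). Pole2, Cdc6, Rfc5, Tk1 and Chaf1b kept their call when any single array was left out. Exo1 lost its call without gland 4 or 6, with an adjusted p of up to 0.10. Pole2 and Chaf1b also passed with 10 arrays and the actin ratio as a covariate, and Cdc6, Rfc5, Tk1 and Exo1 did not (adjusted p from 0.12 to 0.50). Without STAT5ca_177 and with that covariate all but Exo1 (adjusted p = 0.12) passed.

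**Figure D2:**
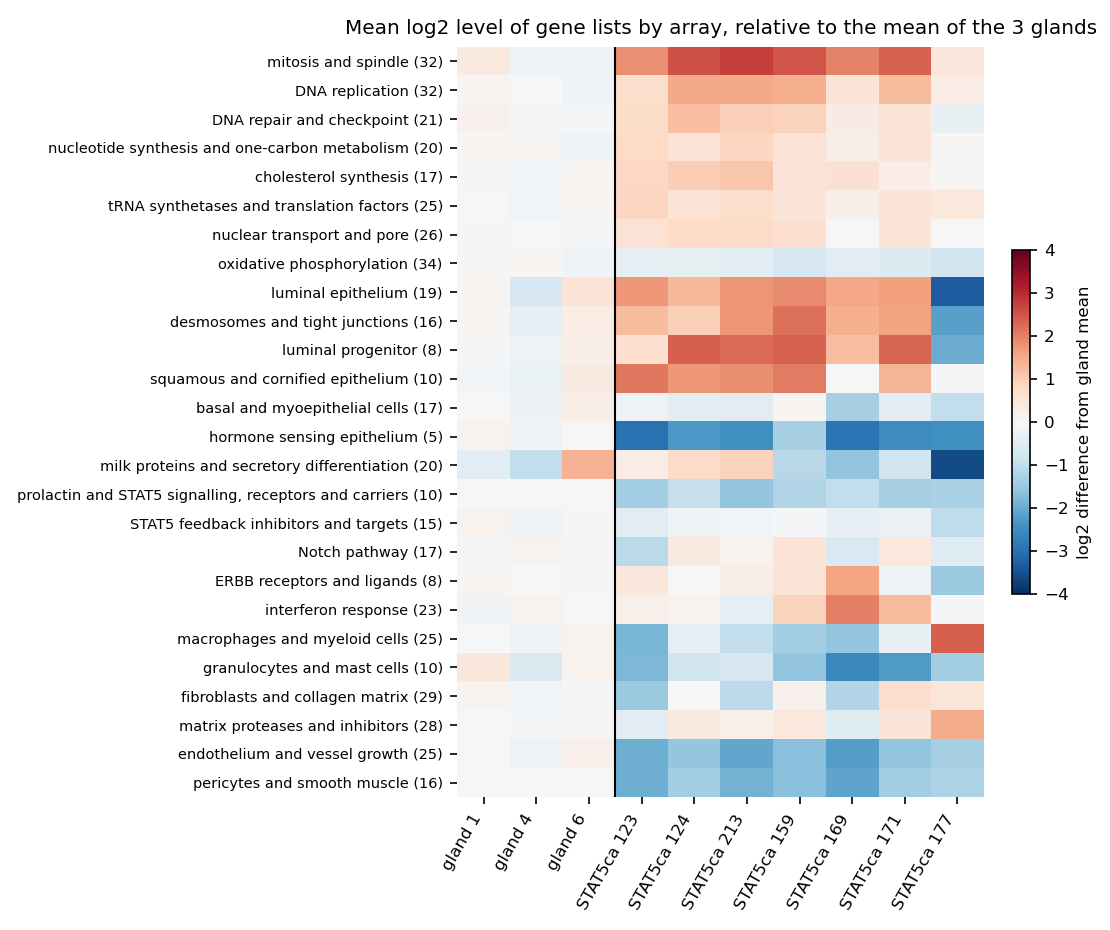
Mean log2 level of 26 gene lists (rows, with the number of genes tested) in each array, relative to the mean of the 3 glands; red is higher and blue lower. The mitosis list was 1.83 to 2.77 above the glands in 6 tumours, and STAT5ca_177 stands apart in luminal, junction and macrophage genes.

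Of 21 cyclins, kinases and inhibitors that govern entry into S phase 3 were higher and 3 lower, against 4.80% and 11.9% of all genes. The higher count became 0 without gland 1, 4, 6 or STAT5ca_171, 1 without STAT5ca_213 or STAT5ca_159, 1 under the actin covariate and 5 under quantile normalization, and the lower 1 without gland 1 or 4 and 0 under the actin covariate. Ccnd1, the D cyclin that mammary epithelium needs to grow, had signals of 766, 356 and 450 in glands 1, 4 and 6, of 446 in STAT5ca_123 and of 2150.5 to 5396 in the other 6 tumours. All tumours but STAT5ca_123 were above all glands, and the change was 2.58 ± 0.71 (adjusted p = 0.032), and 2.56 ± 0.75 (adjusted p = 0.027) without STAT5ca_177. Ccnd2, another D cyclin, had signals of 284, 279 and 317 in glands 1, 4 and 6 and of 14 to 219 with a median of 27 in the tumours, the highest in STAT5ca_177, with no overlap, and changed by -2.69 ± 0.62 (adjusted p = 0.014), and -3.07 ± 0.34 (adjusted p = 1.6e-04) without STAT5ca_177. Cdkn1c, an inhibitor of cyclin-dependent kinases from an imprinted locus, had signals of 91.6, 70.8 and 81.5 in glands 1, 4 and 6 and of 8.1 to 35.1 with a median of 20.9 in the tumours and changed by -1.68 ± 0.33 (adjusted p = 0.0053), and -1.58 ± 0.31 (adjusted p = 0.0034) without STAT5ca_177. Cdkn1a, the inhibitor p21, rose by 1.64 ± 0.48 (adjusted p = 0.040) and was highest in STAT5ca_177, at 2233. The kinase Cdk4 rose only without STAT5ca_177, by 1.38 ± 0.22 (adjusted p = 0.0011). Cdkn1c kept its call when any single array was left out. Ccnd1 lost its call without gland 1, 4, 6, STAT5ca_124, STAT5ca_213, STAT5ca_159 or STAT5ca_171, with an adjusted p of up to 0.15, and Ccnd2 lost its call without gland 1, 4 or 6, with an adjusted p of up to 0.062. Cdkn1a lost its call without gland 1, 4, 6, STAT5ca_123, STAT5ca_159 or STAT5ca_171, with an adjusted p of up to 0.15. Cdkn1a also passed with 10 arrays and the actin ratio as a covariate, and Ccnd1, Ccnd2 and Cdkn1c did not (adjusted p from 0.076 to 0.34). With this covariate in the fit of 6 tumours only Ccnd2 and Cdkn1a passed, the others having adjusted p from 0.068 to 0.14. Cdkn1a lost its call with 10 arrays under the model of 3 groups and the mean of the probe sets (adjusted p from 0.081 to 0.086) and without STAT5ca_177 under the model of 3 groups and the mean of the probe sets (adjusted p from 0.063 to 0.098). For Ccnd1 the scaling to a common median gave 2.87.

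Of 17 cholesterol synthesis genes 3 were higher and none lower, against 4.80% of all genes higher, and 14 did not pass, with a median of 0.68. This count stayed at 3 without gland 1, 4 or 6 and was 0 with the actin ratio as a covariate. Fdps, which makes the farnesyl unit for sterols and protein prenylation, had signals of 137, 115 and 180.2 in glands 1, 4 and 6 and of 378 to 1365 with a median of 711 in the tumours. All tumours lay above all glands, and the change was 2.31 ± 0.34 (adjusted p = 0.0011), and 2.47 ± 0.27 (adjusted p = 1.4e-04) without STAT5ca_177. Sqle, which commits squalene to sterols, changed by 1.84 ± 0.31 (adjusted p = 0.0022), and 1.95 ± 0.28 (adjusted p = 6.5e-04) without STAT5ca_177, and Dhcr7, which makes cholesterol in the last step, by 1.52 ± 0.27 (adjusted p = 0.0033), and 1.60 ± 0.25 (adjusted p = 0.0012) without STAT5ca_177. Scd2, a desaturase of fatty acids, had signals of 1161, 939.8 and 1079.9 in glands 1, 4 and 6 and of 2196 to 4173 with a median of 2789.5 in the tumours and changed by 1.46 ± 0.23 (adjusted p = 0.0015), and 1.41 ± 0.22 (adjusted p = 9.7e-04) without STAT5ca_177. Its paralogue Scd1, the main desaturase of fat, had signals of 7242, 7330.2 and 9317 in glands 1, 4 and 6 and of 371 to 5619 with a median of 3065 in the tumours. It fell only without STAT5ca_177, with a change of -1.21 ± 0.37 (adjusted p = 0.032), and close paralogues such as these can share probe signal. Scd1 lost its call without gland 1, 4, 6, STAT5ca_123 or STAT5ca_213, with an adjusted p of up to 0.11 in the fit without STAT5ca_177. Scd1 lost its call under scaling to a common median and the mean of the probe sets (adjusted p from 0.10 to 0.14). Without STAT5ca_177, the actin ratio as a covariate ended the call of Scd1 (adjusted p = 0.073). Of the 18 fatty acid and triglyceride genes 7 were lower and 1 higher, against 11.9% of all genes lower. The lower count became 4 without gland 1, 4 or 6. Dgat2, which completes triglycerides, changed by -3.82 ± 0.60 (adjusted p = 0.0015), and -3.71 ± 0.61 (adjusted p = 0.0014) without STAT5ca_177, and Fasn, fatty acid synthase, by -1.99 ± 0.53 (adjusted p = 0.029), and -1.70 ± 0.38 (adjusted p = 0.0075) without STAT5ca_177. The fat cell list, of which 72 of 116 genes fell, moves with these, and its part was not tested. Fdps, Sqle, Dhcr7, Scd2 and Dgat2 kept their call when any single array was left out. Fasn lost its call without gland 1, 4, 6, STAT5ca_159 or STAT5ca_171, with an adjusted p of up to 0.11. Scd2, Dgat2 and Fasn also passed with 10 arrays and the actin ratio as a covariate, and Fdps, Sqle and Dhcr7 did not (adjusted p from 0.070 to 0.13). Under the same covariate but without STAT5ca_177 all but Dhcr7 (adjusted p = 0.054) passed. Scd2 lost its call under the mean of the probe sets in both fits (adjusted p = 0.086 and 0.073), and Fasn lost its call with 10 arrays under scaling to a common median (adjusted p = 0.052).

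Of 26 genes of glycolysis and hypoxia 5 were higher and 2 lower, against 4.80% and 11.9% of all genes. The higher count became 3 without gland 1 or 6, 1 without gland 4 and 0 under the actin covariate, and the lower 1 without gland 4 or 6 and 1 under scaling to a common median. Pfkl, the liver form of phosphofructokinase, had signals of 710.2, 731 and 1250.1 in glands 1, 4 and 6 and of 1602 to 4317 with a median of 2766 in the tumours and changed by 1.62 ± 0.31 (adjusted p = 0.0050), and 1.74 ± 0.26 (adjusted p = 9.2e-04) without STAT5ca_177, with no overlap. Pfkm, the muscle form, had signals of 3597, 4870.4 and 3588 in glands 1, 4 and 6 and of 136 to 472 with a median of 249 in the tumours and changed by -3.93 ± 0.35 (adjusted p = 4.2e-05), and -3.99 ± 0.35 (adjusted p = 3.8e-05) without STAT5ca_177. Aldoc, aldolase C, rose by 1.76 ± 0.47 (adjusted p = 0.027), and Aldoa, the aldolase of muscle and many other tissues, fell, with a change of -0.86 ± 0.20 (adjusted p = 0.014). The muscle forms Pfkm and Aldoa are also expressed in skeletal muscle, of which 105 of 115 genes fell. Egln3, an oxygen-sensing prolyl hydroxylase, rose only without STAT5ca_177, by 2.54 ± 0.35 (adjusted p = 5.6e-04), with signals of 181, 173 and 225 in the glands, 96.4 in STAT5ca_177 and 549 to 1817 in the other tumours. Psat1, which makes serine from a glycolytic intermediate, rose by 1.62 ± 0.38 (adjusted p = 0.016). Slc1a5, a glutamine transporter, had signals of 989, 1405 and 1469 in glands 1, 4 and 6 and of 74.4 to 424 with a median of 268 in the tumours and changed by -2.46 ± 0.50 (adjusted p = 0.0070), and -2.34 ± 0.49 (adjusted p = 0.0054) without STAT5ca_177. Got1, the cytosolic aspartate aminotransferase, changed by -2.68 ± 0.54 (adjusted p = 0.0066), and -2.77 ± 0.55 (adjusted p = 0.0039) without STAT5ca_177. Of 34 respiratory chain genes 6 fell and none rose, against 11.9% of all genes lower. The count became 2 without gland 1, 1 without gland 4, 3 without gland 6 or STAT5ca_171, 3 under the actin covariate, 1 under scaling to a common median and 13 under the model of 3 groups. Ndufs1, a subunit of complex I, had a change of -1.44 ± 0.23 (adjusted p = 0.0017), and -1.41 ± 0.23 (adjusted p = 0.0013) without STAT5ca_177. Pfkl, Pfkm, Slc1a5, Got1 and Ndufs1 kept their call when any single array was left out. Aldoc lost its call without gland 1 or 4, with an adjusted p of up to 0.15, and Aldoa lost its call without gland 4 or 6, with an adjusted p of up to 0.081. Psat1 lost its call without gland 1 or 4, with an adjusted p of up to 0.10. Pfkm, Got1 and Ndufs1 also passed with 10 arrays and the actin ratio as a covariate, and Pfkl, Aldoc, Aldoa, Psat1 and Slc1a5 did not (adjusted p from 0.059 to 0.33). With that covariate but 6 tumours all but Aldoa and Slc1a5 (adjusted p from 0.054 to 0.082) passed. Aldoa lost its call under scaling to a common median in both fits (adjusted p = 0.16 and 0.065). As a covariate in the fit without STAT5ca_177, the actin ratio left Egln3 past the threshold.

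Of 25 tRNA synthetases and translation factors 6 rose and none fell, against 4.80% of all genes higher, a count that became 1 without gland 1 or 4 and 0 under the actin covariate. Eif6, which binds the large ribosomal subunit, had signals of 479, 426 and 498 in glands 1, 4 and 6 and of 866 to 1601 with a median of 1248 in the tumours, with no overlap, and changed by 1.38 ± 0.22 (adjusted p = 0.0017), and 1.38 ± 0.22 (adjusted p = 0.0012) without STAT5ca_177. Sars and Hars, the serine and histidine tRNA synthetases, rose by 1.11 ± 0.27 (adjusted p = 0.018) and 0.97 ± 0.22 (adjusted p = 0.012). Of 17 ribosomal protein genes none was called in either fit with limma, also none at an unadjusted p under 0.05, with medians of 0.07 and 0.11. Of 29 ribosome synthesis genes 3 rose with 10 arrays and 10 without STAT5ca_177, the first count becoming 0 without gland 1, 4, 6, STAT5ca_123, STAT5ca_213, STAT5ca_159 or STAT5ca_171, 1 without STAT5ca_124, 8 without STAT5ca_169, 0 under the actin covariate, 9 under scaling to a common median, 5 under quantile normalization and 7 under the model of 3 groups. Ranbp1, which helps the GTPase Ran drive nuclear transport, had signals of 764, 643 and 787 in glands 1, 4 and 6 and of 1309.6 to 2409 with a median of 2075 in the tumours and changed by 1.40 ± 0.22 (adjusted p = 0.0014), and 1.38 ± 0.22 (adjusted p = 0.0010) without STAT5ca_177. It was 1 of 3 genes that rose among 26 of nuclear transport, a count that became 1 without gland 4 or 6, 0 under the actin covariate and 5 under quantile normalization. Cct5 and Cct7, subunits of the chaperonin that folds actin and tubulin, rose by 0.79 ± 0.18 (adjusted p = 0.015) and 0.95 ± 0.21 (adjusted p = 0.011), and Cryab, a small heat shock protein of muscle and epithelium, changed by -2.53 ± 0.49 (adjusted p = 0.0052), and -2.34 ± 0.43 (adjusted p = 0.0026) without STAT5ca_177. Of 32 proteasome genes 2 rose with 10 arrays, near the 4.80% of all genes, and 12 without STAT5ca_177, where 13.2% of all genes rose. The second count became 1 without gland 1, 2 without gland 4, 3 without gland 6, 7 without STAT5ca_171 and 2 under the actin covariate. Eif6, Ranbp1 and Cryab kept their call when any single array was left out. Sars lost its call without gland 1 or 4, with an adjusted p of up to 0.11, and Hars lost its call without gland 1, 4 or 6, with an adjusted p of up to 0.061. Cct5 lost its call without gland 1, 4 or 6, with an adjusted p of up to 0.086, and Cct7 lost its call without gland 1 or 4, with an adjusted p of up to 0.063. None of these genes passed with 10 arrays and the actin ratio as a covariate (adjusted p from 0.056 to 0.28). Without STAT5ca_177 and with that covariate only Eif6, Sars and Ranbp1 passed, the others having adjusted p from 0.067 to 0.22.

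Gene families of the early secretory pathway were chosen after their values were seen, and their counts serve as a description beside the 4.80% of all genes that rose. Of 8 genes for the COPI coat, which carries proteins back from the Golgi, 4 rose, with a median of 0.67, a count that became 0 without gland 1 or 4, 1 without gland 6, 2 without STAT5ca_213 or STAT5ca_171 and 0 under the actin covariate. Copg1, a subunit of this coat, had signals of 437, 478 and 481 in glands 1, 4 and 6 and of 656 to 892 with a median of 772 in the tumours and changed by 0.73 ± 0.17 (adjusted p = 0.013), and 0.70 ± 0.16 (adjusted p = 0.0072) without STAT5ca_177. Of 20 genes for the translocon and the enzyme that attaches sugars to new proteins 6 rose, with a median of 0.58, a count that became 0 without gland 1 or 4 and 0 under the actin covariate. Sec61a1, the channel of the translocon, changed by 1.12 ± 0.26 (adjusted p = 0.013), and 1.16 ± 0.25 (adjusted p = 0.0070) without STAT5ca_177, and Ddost, a subunit of the transferase, by 0.88 ± 0.21 (adjusted p = 0.017), and 0.93 ± 0.19 (adjusted p = 0.0048) without STAT5ca_177. Kdelr2, which returns chaperones to the endoplasmic reticulum, had signals of 529, 475 and 681 in glands 1, 4 and 6 and of 747 to 1873 with a median of 1227 in the tumours and changed by 1.11 ± 0.27 (adjusted p = 0.020), and 1.22 ± 0.23 (adjusted p = 0.0027) without STAT5ca_177. Of 3 such receptors 2 rose, a count that became 0 without gland 1 or 4, 1 without gland 6, STAT5ca_213 or STAT5ca_169, 0 under the actin covariate, 1 under the filter at the 60th percentile, 1 under the model of 3 groups and 1 under an offset at the 40th percentile. None of these families had a gene that fell. In the list of folding and stress genes of this compartment 3 of 25 rose and 1 fell, and the higher count became 0 without gland 1 or 4, 1 without STAT5ca_123 or STAT5ca_171 and 0 under the actin covariate. Copg1 lost its call without gland 1, 4 or 6, with an adjusted p of up to 0.085, and Sec61a1 lost its call without gland 1 or 4, with an adjusted p of up to 0.095. Ddost lost its call without gland 1 or 4, with an adjusted p of up to 0.12, and Kdelr2 lost its call without gland 1 or 4, with an adjusted p of up to 0.11. Adding the actin ratio as a covariate to the fit of 10 arrays left none of them past the threshold (adjusted p from 0.15 to 0.31). With this covariate in the fit of 6 tumours none passed either (adjusted p from 0.077 to 0.21). Copg1 lost its call under the mean of the probe sets in both fits (adjusted p = 0.13 and 0.088).

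No gene of the prolactin and STAT5 pathway itself was called higher. Of 10 genes for receptors, kinases and STATs 4 fell and none rose, against 11.9% of all genes lower, with a median of -1.02. The count became 0 under the actin covariate and 2 under the mean of the probe sets. Stat5a had signals of 540.4, 392 and 683 in glands 1, 4 and 6 and of 103 to 609.6 with a median of 283 in the tumours, and a change of -1.01 ± 0.51 (adjusted p = 0.21) that did not pass. Stat5b had signals of 736, 769 and 632 in glands 1, 4 and 6 and of 212 to 630.1 with a median of 435 in the tumours, with every tumour below every gland, and a change of -0.93 ± 0.33 (adjusted p = 0.085). Whether either probe set detects the transgene is not given in the sources used here. Ghr, the growth hormone receptor, had signals of 2247, 2722 and 1869.9 in glands 1, 4 and 6 and of 140.5 to 745 with a median of 541 in the tumours and changed by -2.26 ± 0.46 (adjusted p = 0.0071), and -1.99 ± 0.26 (adjusted p = 4.2e-04) without STAT5ca_177. Lifr, the receptor of leukaemia inhibitory factor, changed by -3.34 ± 0.63 (adjusted p = 0.0047), and -3.56 ± 0.58 (adjusted p = 0.0014) without STAT5ca_177, and Jak1, a kinase of cytokine receptors, by -1.12 ± 0.21 (adjusted p = 0.0043), and -1.19 ± 0.18 (adjusted p = 8.8e-04) without STAT5ca_177. Jak2 and Stat3 did not pass in either fit, with changes of -0.74 ± 0.30 (adjusted p = 0.13) and 0.22 ± 0.24 (adjusted p = 0.58). Ghr, Lifr and Jak1 kept their call when any single array was left out. With 10 arrays and the actin ratio as a covariate none of them passed (adjusted p from 0.089 to 0.17). Under the same covariate but without STAT5ca_177 all but Lifr (adjusted p = 0.062) passed. Jak1 lost its call with 10 arrays under scaling to a common median and the mean of the probe sets (adjusted p from 0.053 to 0.18) and without STAT5ca_177 under the mean of the probe sets (adjusted p = 0.12).

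Of 15 targets and feedback inhibitors of STAT5, 2 rose and 3 fell, against 4.80% and 11.9% of all genes, with a median of -0.24 that changed sign to 0.03 without STAT5ca_177 and to 0.04 under scaling to a common median. Promoters of 3 genes that STAT5 is known to bind are shown, since these genes are read here as outputs of the pathway, with the STAT5 core letters TTCNNNGAA, a palindrome that reads the same on both strands, in capitals. They are RefSeq's for GRCm38.p6 and end just before the start site.
Csn2 (chr5:87699426-87699565, minus strand): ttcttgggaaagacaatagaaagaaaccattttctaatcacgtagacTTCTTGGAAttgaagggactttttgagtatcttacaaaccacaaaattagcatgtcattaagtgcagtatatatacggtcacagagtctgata
Glycam1 (chr15:103565082-103565261, minus strand): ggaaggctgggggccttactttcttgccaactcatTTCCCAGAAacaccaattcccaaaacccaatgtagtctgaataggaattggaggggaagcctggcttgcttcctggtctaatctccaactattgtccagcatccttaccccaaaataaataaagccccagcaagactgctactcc
Bcl6 (chr16:23981284-23981463, minus strand): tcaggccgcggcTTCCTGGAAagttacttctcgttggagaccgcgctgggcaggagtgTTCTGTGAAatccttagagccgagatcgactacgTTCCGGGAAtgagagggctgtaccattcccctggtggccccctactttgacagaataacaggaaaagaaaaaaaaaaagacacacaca
The core lay 93 bases before the start of Csn2, 145 before that of Glycam1, and 88, 122 and 168 before that of Bcl6. For a gene with several starts, the start with the most matches is shown. Within 250 bases of any start the core was present in 4 of 14 milk genes, 2 of 12 genes of the target list and 8.13% of all genes. Cish, a feedback inhibitor of cytokine receptors, had signals of 215, 231 and 402 in glands 1, 4 and 6 and of 51.2 to 336 with a median of 212.9 in the tumours, overlapping the glands, with a change of -0.64 ± 0.54 (adjusted p = 0.46). Socs2, an inhibitor of growth hormone and prolactin signalling, had signals of 466, 489.6 and 318 in the glands, of 3392 in STAT5ca_169 and 1017 in STAT5ca_123, both above the glands, and of 112 to 255 in the other 5 tumours, all below them. Bcl6, a repressor that STAT5 is known to bind and silence, had signals of 419.6, 543 and 335 in glands 1, 4 and 6 and of 88.7 to 353 with a median of 212 in the tumours, and fell only without STAT5ca_177, with a change of -1.09 ± 0.35 (adjusted p = 0.039). Myc, the growth-promoting transcription factor, rose only without it, by 0.72 ± 0.24 (adjusted p = 0.048). Id2, an inhibitor of differentiation factors, rose by 0.90 ± 0.24 (adjusted p = 0.027), and Igf1, the growth factor that growth hormone induces through STAT5, had signals of 237, 236 and 307 in glands 1, 4 and 6 and of 21.1 to 82.8 with a median of 42 in the tumours and changed by -2.37 ± 0.36 (adjusted p = 0.0012), and -2.31 ± 0.36 (adjusted p = 0.0010) without STAT5ca_177. Igf1 kept its call when any single array was left out. Id2 lost its call without gland 1, 4, 6 or STAT5ca_213, with an adjusted p of up to 0.13. Bcl6 lost its call without gland 1, 4, 6, STAT5ca_123, STAT5ca_169 or STAT5ca_171, with an adjusted p of up to 0.16, and Myc lost its call without gland 4, 6, STAT5ca_123, STAT5ca_213, STAT5ca_159 or STAT5ca_171, with an adjusted p of up to 0.23 in the fit without STAT5ca_177. Bcl6 lost its call under scaling to a common median and the mean of the probe sets (adjusted p from 0.063 to 0.083), and Myc lost its call under the model of 3 groups, array quality weights, the mean of the probe sets, no filter, an offset of 1 and quantile normalization (adjusted p from 0.0502 to 0.071). Holding the actin ratio as a covariate without STAT5ca_177 ended the call of Bcl6 and Myc (adjusted p from 0.30 to 0.61). Id2 lost its call with 10 arrays under the model of 3 groups and the mean of the probe sets (adjusted p from 0.12 to 0.20) and without STAT5ca_177 under the model of 3 groups and the mean of the probe sets (adjusted p from 0.10 to 0.12). The 2 higher genes of the list, Ccnd1 and Id2, and the 3 lower ones, Igf1, Tnfsf11 and Wnt4, became 0 and 0 with the actin ratio as a covariate, and none was higher without gland 1, 4 or 6.

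Of 20 milk and secretory genes none was called with limma in either fit, and 0 with 10 arrays and 1 without STAT5ca_177 had an unadjusted p under 0.05. With the actin ratio as a covariate 2 were lower in each fit. The medians of -0.62 with 10 arrays and -0.07 without STAT5ca_177 then became -2.37 and -0.87. Without gland 6, 1 was higher with 10 arrays and 2 without STAT5ca_177. The spread was wide in both groups. The mean level of the list was -0.97 in gland 4 and 1.40 in gland 6 relative to the gland mean, and from -3.57 to 0.90 in the tumours. Csn2, beta-casein, the main milk protein, had signals of 6318, 4583 and 8747 in the glands, 5872 to 6929.9 in 5 tumours, 896 in STAT5ca_169 and 345 in STAT5ca_177. Wap, the whey acidic protein, had 277, 31.1 and 7606 in the glands, 1013, 3282 and 2713 in STAT5ca_123, STAT5ca_124 and STAT5ca_213, and 22.4 to 118 in the other 4, so that gland 6 lay above all tumours and gland 4 below most of them. Glycam1, a mucin-like milk protein, had 4896, 3188 and 9117 in the glands, 4782 to 6873 in the same 3 tumours and 1.1 to 65.3 in the other 4. These 3 tumours also had the highest actin ratios, 3.72 to 5.38, and the part of the ratio was not tested. Elf5, the transcription factor that drives alveolar differentiation, had 1369, 769 and 2586 in the glands, 607 to 4381 in 6 tumours and 7.8 in STAT5ca_177.

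Genes of the hormone-sensing list mark the luminal cells that respond to oestrogen and progesterone and pass signals on to their neighbours. Of 10 such genes on the array 5 had enough signal to be tested, and 5 were called lower in both fits. All 5 were above the signal minimum of 35.4 in fewer than 3 tumours and were tested because of the glands, and Cited1 and Tnfsf11 were above it in no tumour, so that these counts and the median of -2.70 are a description of genes that could hardly have been called higher. With no filter 5 of the 10 were lower and the median was -0.96. The count became 0 under the actin covariate, or 1 with that covariate and without STAT5ca_177. Under the filter at the 60th percentile only Foxa1 was still tested, and it passed. Foxa1, which opens chromatin for the oestrogen receptor, had signals of 189, 139.7 and 204 in glands 1, 4 and 6 and of 3.8 to 95.6 with a median of 8.4 in the tumours. No tumour reached a gland, STAT5ca_159 was the highest tumour, and the change was -3.03 ± 0.58 (adjusted p = 0.0050), and -2.93 ± 0.59 (adjusted p = 0.0043) without STAT5ca_177. Cited1, a cofactor of the oestrogen receptor, had signals of 99.8, 79.4 and 216 in glands 1, 4 and 6 and of 1.1 to 29.6 with a median of 16.6 in the tumours and changed by -2.84 ± 0.52 (adjusted p = 0.0039), and -2.68 ± 0.49 (adjusted p = 0.0027) without STAT5ca_177. Tnfsf11, which encodes RANK ligand, the signal that progesterone uses to drive growth, had signals of 212, 108 and 64.2 in glands 1, 4 and 6 and of 4.4 to 29.7 with a median of 8.1 in the tumours and changed by -2.70 ± 0.41 (adjusted p = 0.0013), and -2.87 ± 0.35 (adjusted p = 3.0e-04) without STAT5ca_177. Wnt4, another signal downstream of progesterone, had signals of 94.4, 99.2 and 69.3 in glands 1, 4 and 6 and of 7.2 to 41.3 with a median of 16.5 in the tumours and changed by -1.88 ± 0.36 (adjusted p = 0.0049), and -1.81 ± 0.36 (adjusted p = 0.0039) without STAT5ca_177. Tbx3, a T-box factor of these cells, had 49.3 in STAT5ca_159, within the 45.6, 51.4 and 54.9 of the glands, and changed by -1.67 ± 0.47 (adjusted p = 0.036), and -1.79 ± 0.46 (adjusted p = 0.015) without STAT5ca_177. Foxa1, Cited1, Tnfsf11 and Wnt4 kept their call when any single array was left out. Tbx3 lost its call without gland 1, 4, 6, STAT5ca_123, STAT5ca_124, STAT5ca_213, STAT5ca_169 or STAT5ca_171, with an adjusted p of up to 0.13. None of these genes passed with 10 arrays and the actin ratio as a covariate (adjusted p from 0.053 to 0.64). With that covariate but 6 tumours only Tnfsf11 passed, the others having adjusted p from 0.076 to 0.44. Tbx3 lost its call with 10 arrays under scaling to a common median and quantile normalization (adjusted p from 0.051 to 0.061).

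**Figure D3:**
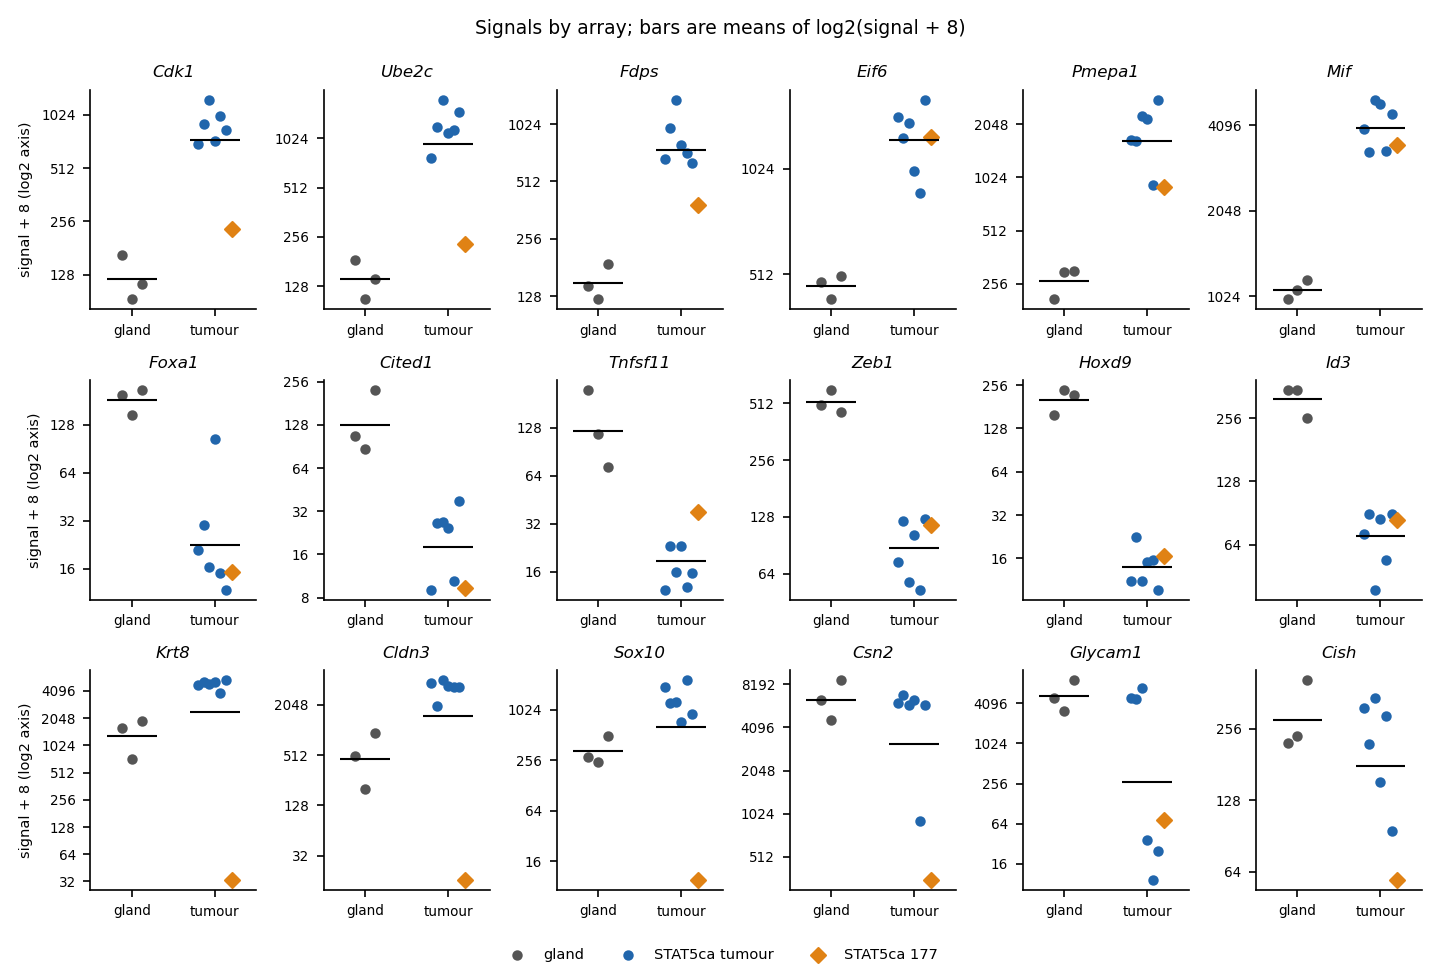
Signal plus 8 (log2 axis) of 18 genes in 3 glands (grey) and 7 STAT5ca tumours (blue, STAT5ca_177 as an orange diamond); bars are group means of the log2 values. Cdk1 to Mif lay higher in all tumours and Foxa1 to Id3 lower in all tumours than in any gland, while STAT5ca_177 was the lowest point for Krt8, Cldn3, Sox10, Csn2 and Cish.

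STAT5ca_177 was set apart by its low signal of the luminal keratin Krt8, so that what luminal genes did when it was left out is a description that this choice helped to fix. With 10 arrays none of 19 genes was called with limma, 1 having an unadjusted p under 0.05, and without that array 17 were higher, where 13.2% of all genes were, with a median of 1.79. With the actin ratio as a covariate the count was 11. The mean level of the list was 1.30 to 1.90 above the gland mean in the 6 tumours and -3.31 in STAT5ca_177. Krt18, the partner of keratin 8, had 1522, 827 and 1857 in the glands, 5184 to 6440.5 in 6 tumours and 50.2 in STAT5ca_177, and rose without it by 2.06 ± 0.24 (adjusted p = 2.4e-04). Cldn3, a claudin that seals tight junctions, had 489.5, 194 and 921 in the glands, 1969.8 to 4012 in the 6 tumours and 8.4 in STAT5ca_177, and rose by 2.83 ± 0.42 (adjusted p = 8.1e-04) without it. Rab25, a GTPase of epithelial membrane recycling, rose by 3.15 ± 0.34 (adjusted p = 1.3e-04), and Ehf, an epithelial ETS factor, by 2.51 ± 0.32 (adjusted p = 3.7e-04). Epcam, the epithelial adhesion molecule, rose by 1.12 ± 0.25 (adjusted p = 0.0080), and Cdh1, E-cadherin, by 1.36 ± 0.26 (adjusted p = 0.0032). Cdh1 stood at 563 in STAT5ca_177, within the 802, 494 and 749 of the glands. In desmosomes and tight junctions, 10 of 16 genes were higher without STAT5ca_177 and 1 with it. Jup, plakoglobin, rose by 1.58 ± 0.17 (adjusted p = 1.5e-04), Cldn1 by 2.94 ± 0.29 (adjusted p = 7.1e-05), and Perp, a desmosome protein induced by p53, by 3.45 ± 0.45 (adjusted p = 4.0e-04). Krt18, Cldn3, Rab25, Ehf, Epcam, Cdh1, Jup, Cldn1 and Perp kept their call when any further array was left out in the fit without STAT5ca_177. Without STAT5ca_177, the actin ratio as a covariate left Krt18, Cldn3, Rab25, Ehf, Cdh1, Jup, Cldn1 and Perp past the threshold and ended the call of Epcam (adjusted p = 0.062).

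Without STAT5ca_177, 3 of 8 markers of luminal progenitors, the cells from which alveoli form, were called higher with limma, where 13.2% of all genes were, and none with it, where 3 had an unadjusted p under 0.05. Sox10, a factor of progenitor state in this tissue, had 274, 236 and 492 in the glands, 727 to 2287 in 6 tumours and 1.6 in STAT5ca_177, and rose without it by 1.98 ± 0.38 (adjusted p = 0.0035). Gabrp, a GABA receptor subunit and progenitor marker, had 28.8, 25 and 19.6 in the glands and 146 to 832 in the 6 tumours, and rose by 3.71 ± 0.56 (adjusted p = 8.4e-04). Kit, the receptor of stem cell factor, rose by 1.24 ± 0.30 (adjusted p = 0.011). Klk10, a kallikrein protease of squamous epithelium, had 5.8, 3.4 and 4.1 in the glands, 408 to 3099.7 in 5 tumours, 11.4 in STAT5ca_169 and 10 in STAT5ca_177, and its change was 4.72 ± 1.55 (adjusted p = 0.062), and 5.42 ± 1.28 (adjusted p = 0.0099) without STAT5ca_177. Sox10, Gabrp and Klk10 kept their call when any further array was left out in the fit without STAT5ca_177. Kit lost its call without gland 4, with an adjusted p of up to 0.068. Kit lost its call under the mean of the probe sets (adjusted p = 0.12). As a covariate in the fit without STAT5ca_177, the actin ratio left Gabrp and Kit past the threshold and ended the call of Sox10 and Klk10 (adjusted p from 0.11 to 0.25). The higher count of the list became 6 without STAT5ca_169.

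Of 17 basal and contractile genes 7 fell and none rose, against 11.9% and 4.80% of all genes. Of the 7, 4 were above the signal minimum in no tumour. The count of 7 became 1 under the actin covariate and 3 under the filter at the 60th percentile, where dim members were not tested. Without STAT5ca_177, 7 fell and 2 rose, against 18.4% and 13.2% of all genes. Those 2 became 0 without gland 1 or 4 and 0 under the actin covariate. The mean level of the list ran from -1.34 in STAT5ca_169 to 0.07 in STAT5ca_159. Myh11, smooth muscle myosin, had signals of 160.3, 167 and 259.8 in glands 1, 4 and 6 and of 1.9 to 25.5 with a median of 11.4 in the tumours, with no overlap, and changed by -3.39 ± 0.41 (adjusted p = 2.7e-04), and -3.50 ± 0.39 (adjusted p = 1.6e-04) without STAT5ca_177. Mylk, its kinase, changed by -2.16 ± 0.43 (adjusted p = 0.0059), and -2.27 ± 0.42 (adjusted p = 0.0026) without STAT5ca_177. Trp63, which encodes the basal factor p63, had signals of 92.5, 59.7 and 88 in glands 1, 4 and 6 and of 6.2 to 33.5 with a median of 16.7 in the tumours and changed by -1.85 ± 0.30 (adjusted p = 0.0020), and -1.84 ± 0.31 (adjusted p = 0.0017) without STAT5ca_177. Lama3, a laminin chain of the basement membrane, changed by -1.43 ± 0.26 (adjusted p = 0.0039), and -1.46 ± 0.27 (adjusted p = 0.0025) without STAT5ca_177. The basal keratin Krt5 did not pass, at -1.13 ± 0.51 (adjusted p = 0.16), nor did Krt14, at 1.11 ± 1.32 (adjusted p = 0.61), whose tumour signals ran from 1.3 in STAT5ca_169 to 1391 in STAT5ca_124 against 97.6, 62.9 and 102 in the glands. Smooth muscle of vessels shares Myh11 and Mylk. Of 16 pericyte and smooth muscle genes, a list that also holds Myh11, 9 fell, against 11.9% of all genes. Of the 9, 3 were above the minimum in no tumour, and the count became 3 under the actin covariate. Of 11 genes of the mesenchymal state 3 fell and none rose, against 11.9% of all genes lower, and the count became 1 under the actin covariate. Without STAT5ca_177, 6 fell, against 18.4% of all genes, and this count became 3 without gland 1 and 3 under the actin covariate. Zeb1, a repressor of E-cadherin, had signals of 490.4, 592 and 453 in glands 1, 4 and 6 and of 44.8 to 118 with a median of 95.1 in the tumours, with no overlap, and changed by -2.55 ± 0.32 (adjusted p = 3.4e-04), and -2.62 ± 0.31 (adjusted p = 2.5e-04) without STAT5ca_177. Cdh2, N-cadherin, changed by -1.61 ± 0.26 (adjusted p = 0.0019), and -1.67 ± 0.25 (adjusted p = 8.0e-04) without STAT5ca_177. Myh11, Mylk, Trp63, Lama3, Zeb1 and Cdh2 kept their call when any single array was left out. Myh11 and Zeb1 also passed with 10 arrays and the actin ratio as a covariate, and Mylk, Trp63, Lama3 and Cdh2 did not (adjusted p from 0.074 to 0.11). Without STAT5ca_177 and with that covariate all but Trp63 and Lama3 (adjusted p from 0.066 to 0.097) passed. Trp63 lost its call under the model of 3 groups in both fits (adjusted p = 0.072 and 0.068), and Lama3 lost its call under the model of 3 groups in both fits (adjusted p = 0.17 and 0.15).

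STAT5ca_177 differed from the other 6 tumours in epithelial and in myeloid genes. By the naming rule, 15 genes with the widest gap above the other tumours were taken, among them Vsig4, Fcgr4, Clec4n, Fpr2, Itgam and Mmp9, which are genes of macrophages and neutrophils. Vsig4, a complement receptor of tissue macrophages, had 9.6, 12.2 and 8.2 in the glands, 3.1 to 45.5 in 6 tumours and 3851 in STAT5ca_177. Fcgr4, an IgG receptor, had 47.9, 23.9 and 44, 36.6 to 116 and 3619.5 in the same order. Mmp9, a gelatinase of neutrophils and macrophages, had 117, 76.9 and 83.7, 11.5 to 126 and 3751. Marco, a scavenger receptor of resident macrophages, had 2289, 2793 and 2086 in the glands, 244 in STAT5ca_124, at most 1.8 in 5 tumours and 5085 in STAT5ca_177. It fell only without that array, with a change of -7.23 ± 0.996 (adjusted p = 5.3e-04). The mean level of the 25 macrophage and myeloid genes was 2.38 above the gland mean in STAT5ca_177 and -1.82 to -0.29 in the others. Vim, vimentin of mesenchymal and blood cells, had 3325, 3381 and 2700.1 in the glands, 1015 to 2796 in 6 tumours and 7363 in STAT5ca_177. Among the 15 genes with the widest gap below the other tumours were Krt8, Krt18, Cldn3, Cldn7, Epcam, Esrp1, Rab25, Ehf, Sox10 and Csn3. Csn3, kappa-casein, had 5543, 4604 and 9369 in the glands, 3742 to 8030.2 in 6 tumours and 43.4 in STAT5ca_177. The muscle list stood at -3.07 in STAT5ca_177, lower than in any gland.

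Without STAT5ca_177, 2 of 25 macrophage and myeloid genes were higher and 8 lower, against 13.2% and 18.4% of all genes. The lower count became 4 under the actin covariate. Trem2, a lipid-sensing receptor of macrophages, had 11.5, 6 and 4.6 in the glands, 38 to 133 in 6 tumours and 1660.1 in STAT5ca_177. Every tumour lay above every gland, and the change was 2.94 ± 0.96 (adjusted p = 0.061) with 10 arrays and 2.29 ± 0.38 (adjusted p = 0.0015) without STAT5ca_177. Arg1, arginase of alternatively activated macrophages, had 116, 47.5 and 137 in the glands and 189 to 1582 in the 6 tumours, all above them, and 6417 in STAT5ca_177, and rose by 2.38 ± 0.62 (adjusted p = 0.016) without STAT5ca_177. Mrc1, the mannose receptor, and Csf1r, the receptor of the macrophage growth factor, fell without it, with changes of -2.94 ± 0.59 (adjusted p = 0.0042) and -1.67 ± 0.32 (adjusted p = 0.0032). Of 10 granulocyte and mast cell genes 5 fell with 10 arrays and none rose, against 11.9% of all genes lower. The count became 3 without gland 1, 3 under the actin covariate and 1 under the filter at the 60th percentile. Of the 10 genes, 6 were above the signal minimum of 35.4 in fewer than 3 tumours and were tested because of the glands. Such genes could hardly have been called higher, and the count is a description. Mcpt4, a mast cell chymase, had signals of 158, 112 and 96.5 in glands 1, 4 and 6 and of 3.6 to 39.6 with a median of 10.4 in the tumours, with no overlap, and changed by -2.59 ± 0.38 (adjusted p = 9.7e-04), and -2.55 ± 0.39 (adjusted p = 9.2e-04) without STAT5ca_177. Cpa3, the mast cell carboxypeptidase, changed by -2.70 ± 0.54 (adjusted p = 0.0066), and -2.65 ± 0.56 (adjusted p = 0.0058) without STAT5ca_177, and Tpsb2, a tryptase, by -2.06 ± 0.43 (adjusted p = 0.0083), and -1.90 ± 0.39 (adjusted p = 0.0045) without STAT5ca_177. Mcpt4, Cpa3 and Tpsb2 kept their call when any single array was left out. Trem2, Mrc1 and Csf1r kept their call when any further array was left out in the fit without STAT5ca_177. Arg1 lost its call without gland 4, with an adjusted p of up to 0.089. Holding the actin ratio as a covariate without STAT5ca_177 left Trem2 past the threshold and ended the call of Arg1, Mrc1 and Csf1r (adjusted p from 0.080 to 0.13). Mcpt4 and Tpsb2 also passed with 10 arrays and the actin ratio as a covariate, and Cpa3 did not (adjusted p = 0.056). With this covariate in the fit of 6 tumours all of them passed (adjusted p from 0.028 to 0.047).

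Hox genes are transcription factors that give cells their position along the body. Hoxd9 was among the 12 genes outside the tissue lists with the smallest adjusted p, and the family was then chosen after its values were seen. Of 11 Hox genes tested 8 fell and none rose, with a median of -1.91, and without STAT5ca_177 10 fell. All 11 were above the signal minimum of 35.4 in fewer than 3 tumours and 7 in none, so that they were tested because of the glands and nothing is read from their count beside the 11.9% of all genes that fell. With no filter 12 of 31 Hox genes on the array were lower and 0 higher, with a median of -0.89. The count of 8 became 5 under the actin covariate. Under the filter at the 60th percentile only Hoxd9 and Hoxd8 were still tested, and both fell. Hoxd9 had signals of 151, 229 and 211 in glands 1, 4 and 6 and of 1.7 to 14.7 with a median of 7.2 in the tumours, and Hoxd8 had signals of 367, 386 and 277 in glands 1, 4 and 6 and of 11.1 to 49.1 with a median of 26.3 in the tumours. No tumour reached a gland in either, and the changes were -3.85 ± 0.28 (adjusted p = 1.9e-05), and -3.89 ± 0.28 (adjusted p = 1.3e-05) without STAT5ca_177, and -3.46 ± 0.35 (adjusted p = 1.0e-04), and -3.60 ± 0.30 (adjusted p = 3.1e-05) without STAT5ca_177. Hoxa9 had signals of 137, 134 and 76.5 in glands 1, 4 and 6 and of 1.1 to 35 with a median of 9 in the tumours and changed by -2.80 ± 0.41 (adjusted p = 0.0010), and -2.74 ± 0.42 (adjusted p = 9.7e-04) without STAT5ca_177. Hoxc6 had signals of 56, 78.2 and 66 in glands 1, 4 and 6 and of 10.4 to 20.9 with a median of 17.4 in the tumours and changed by -1.59 ± 0.20 (adjusted p = 3.5e-04), and -1.63 ± 0.19 (adjusted p = 2.1e-04) without STAT5ca_177. Hoxc8, Hoxc4, Hoxb6 and Hoxb4 also fell, with changes of -2.30 ± 0.45 (adjusted p = 0.0056), -2.17 ± 0.37 (adjusted p = 0.0027), -1.69 ± 0.30 (adjusted p = 0.0034) and -1.39 ± 0.33 (adjusted p = 0.016). Hoxa5 had a signal of 172 in STAT5ca_169, above the 98.1, 70.3 and 115 of the glands, and 0.9 to 37.2 in the other tumours, and did not pass in either fit. Stroma and muscle express Hox genes too, and the part of these tissues was not tested. Hoxd9, Hoxd8, Hoxa9, Hoxc6, Hoxc8, Hoxc4 and Hoxb6 kept their call when any single array was left out. Hoxb4 lost its call without gland 1, 4 or 6, with an adjusted p of up to 0.082. Hoxd9, Hoxd8, Hoxa9, Hoxc6 and Hoxc8 also passed with 10 arrays and the actin ratio as a covariate, and Hoxc4, Hoxb6 and Hoxb4 did not (adjusted p from 0.063 to 0.12). Under the same covariate but without STAT5ca_177 all of them passed (adjusted p from 0.0012 to 0.027). Hoxb4 lost its call with 10 arrays under scaling to a common median and quantile normalization (adjusted p from 0.061 to 0.089).

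**Figure D4:**
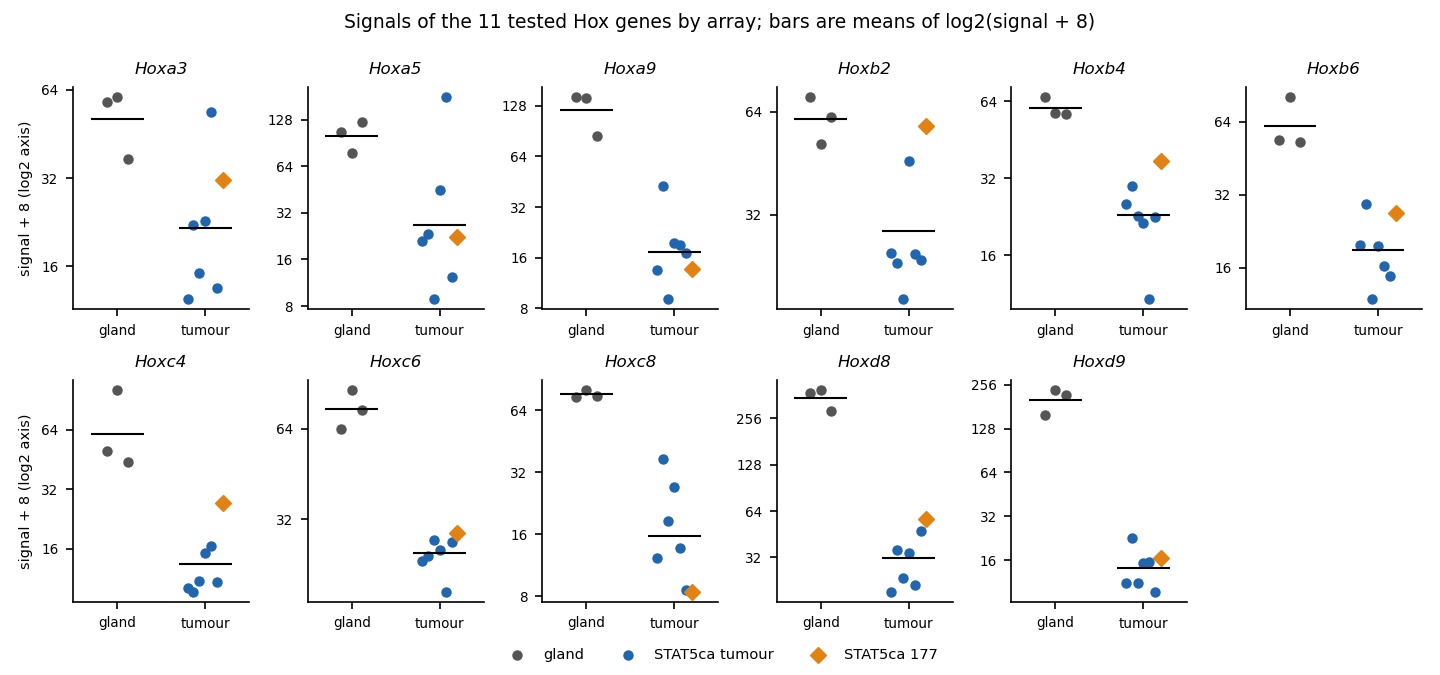
Signal plus 8 (log2 axis) of 11 Hox genes in 3 glands (grey) and 7 STAT5ca tumours (blue, STAT5ca_177 orange); bars are group means of the log2 values. In 8 of the 11 genes every tumour lay below every gland, and Hoxa5 was highest in STAT5ca_169.

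Other families of developmental transcription factors, also chosen after their values were seen, differed by member. Of 9 Sox genes 3 fell with 10 arrays, against 11.9% of all genes: Sox17, Sox18 and Sox7, which are endothelial factors. Without STAT5ca_177, 3 fell and 4 rose, against 18.4% and 13.2% of all genes. The 4 were Sox10, Sox9, Sox4 and Sox2. Sox9, a factor of luminal progenitors and stem cells, had 119, 81 and 95.1 in the glands, 248 to 1052 in 6 tumours and 1.7 in STAT5ca_177, and rose without it by 2.36 ± 0.45 (adjusted p = 0.0031). Sox2, a factor of pluripotent and neural cells, had 2, 7.8 and 0.6 in the glands, 174.1 to 517 in 5 tumours, and 0.2 and 1.5 in STAT5ca_169 and STAT5ca_177. Its change without STAT5ca_177 was 4.14 ± 1.18 (adjusted p = 0.024). Pax6, an eye and pancreas factor, had 11, 6.3 and 4.2 in the glands, 6.8 in STAT5ca_169, 18.3 in STAT5ca_177 and 56.2 to 538 in the other 5, and rose by 3.10 ± 0.96 (adjusted p = 0.033) without STAT5ca_177. Of 4 Iroquois genes 3 rose without STAT5ca_177, against 13.2% of all genes. With that array none was called with limma or had an unadjusted p under 0.05 (0 of 4). Irx3 had 330, 279 and 419 in the glands, 699 to 969 in 6 tumours and 19.6 in STAT5ca_177, a change without it of 1.28 ± 0.19 (adjusted p = 8.4e-04). Sox9 and Irx3 kept their call when any further array was left out in the fit without STAT5ca_177. Sox2 lost its call without gland 1, 4 or 6, with an adjusted p of up to 0.080, and Pax6 lost its call without gland 1, 4, 6, STAT5ca_213, STAT5ca_159 or STAT5ca_171, with an adjusted p of up to 0.10. Sox4 lost its call without gland 1, 4, 6, STAT5ca_123, STAT5ca_213, STAT5ca_159, STAT5ca_169 or STAT5ca_171, with an adjusted p of up to 0.22. Sox4 lost its call under the mean of the probe sets, no filter, an offset of 1 and quantile normalization (adjusted p from 0.051 to 0.15). Without STAT5ca_177, the actin ratio as a covariate left Sox9, Irx3 and Sox4 past the threshold and ended the call of Sox2 and Pax6 (adjusted p from 0.33 to 0.41).

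With 10 arrays every call in the Wnt and Notch lists was a fall. Without STAT5ca_177, 3 of 22 Wnt genes rose and 4 fell, and 2 of 17 Notch genes rose and 6 fell. Over all genes 13.2% rose and 18.4% fell in that fit, so that the rises were near the share of all genes. The 6 became 3 without gland 6, 3 under scaling to a common median and 2 under the actin covariate. Of 22 Wnt pathway genes 4 fell with 10 arrays and none rose, against 11.9% of all genes lower. The count became 2 under the actin covariate and 0 under the filter at the 60th percentile, where Lef1 and Frzb were too dim to be tested. Frzb, Lef1 and Wnt11 were above the signal minimum in no tumour and were tested because of the glands. Lef1, a transcription factor of the pathway, had signals of 76.9, 57.5 and 62.5 in glands 1, 4 and 6 and of 0.7 to 12.1 with a median of 4.4 in the tumours and changed by -2.61 ± 0.27 (adjusted p = 1.1e-04), and -2.58 ± 0.28 (adjusted p = 1.2e-04) without STAT5ca_177. Frzb, a secreted inhibitor of Wnt, had signals of 157, 157 and 106 in glands 1, 4 and 6 and of 1.5 to 22 with a median of 9.3 in the tumours and changed by -3.22 ± 0.37 (adjusted p = 2.1e-04), and -3.38 ± 0.31 (adjusted p = 4.8e-05) without STAT5ca_177. Wnt11, a ligand, changed by -1.36 ± 0.24 (adjusted p = 0.0034), and -1.42 ± 0.23 (adjusted p = 0.0013) without STAT5ca_177. Vangl2, a membrane protein of planar polarity, is in neither list. It had signals of 16.5, 16.6 and 17.5 in glands 1, 4 and 6 and of 36.3 to 61.5 with a median of 49.4 in the tumours, with no overlap. The change was 1.23 ± 0.19 (adjusted p = 0.0013), and 1.20 ± 0.18 (adjusted p = 8.1e-04) without STAT5ca_177. In the Notch list 3 of 17 fell, a count that became 1 under the actin covariate and 1 under the filter at the 60th percentile, where dim members were not tested. These were the ligands Jag2 and Dll1, with changes of -1.13 ± 0.22 (adjusted p = 0.0050) and -1.79 ± 0.54 (adjusted p = 0.045), and Dtx1, a regulator of the receptor, with -2.51 ± 0.42 (adjusted p = 0.0023). In the list of TGF-beta and BMP signalling 1 of 27 rose and 3 fell, shares close to the 4.80% and 11.9% of all genes. The higher count became 0 without gland 1, 4, 6 or STAT5ca_213. It was also 0 under the actin covariate, the mean of the probe sets and the model of 3 groups. Pmepa1, described below, kept its call in those fits and is not the gene counted as higher. The lower count became 1 without gland 4 or 6, 1 under the actin covariate and 1 under scaling to a common median. Id3, a target of BMP signals that blocks differentiation factors, had signals of 341, 340.5 and 249 in glands 1, 4 and 6 and of 31 to 81.5 with a median of 76.2 in the tumours and changed by -2.16 ± 0.29 (adjusted p = 5.6e-04), and -2.21 ± 0.29 (adjusted p = 4.3e-04) without STAT5ca_177. Pmepa1, which TGF-beta induces and which limits its receptors, had signals of 201, 291 and 294 in glands 1, 4 and 6 and of 896 to 2800.1 with a median of 1653 in the tumours, with no overlap, and changed by 2.62 ± 0.37 (adjusted p = 8.2e-04), and 2.77 ± 0.33 (adjusted p = 2.4e-04) without STAT5ca_177. Igfbp3, a carrier of insulin-like growth factors, had signals of 285, 303 and 233 in glands 1, 4 and 6 and of 495 to 897 with a median of 686 in the tumours and changed by 1.30 ± 0.23 (adjusted p = 0.0032), and 1.34 ± 0.23 (adjusted p = 0.0017) without STAT5ca_177. Fgf13, a member of the fibroblast growth factor family that acts inside cells, changed by -3.91 ± 0.52 (adjusted p = 5.4e-04), and -3.96 ± 0.54 (adjusted p = 5.1e-04) without STAT5ca_177. Lef1, Frzb, Wnt11, Vangl2, Jag2, Dtx1, Id3, Pmepa1, Igfbp3 and Fgf13 kept their call when any single array was left out. Dll1 lost its call without gland 1, 4, 6, STAT5ca_123, STAT5ca_124, STAT5ca_213, STAT5ca_159 or STAT5ca_171, with an adjusted p of up to 0.14. Lef1, Frzb, Dtx1, Id3, Pmepa1, Igfbp3 and Fgf13 also passed with 10 arrays and the actin ratio as a covariate, and Wnt11, Vangl2, Jag2 and Dll1 did not (adjusted p from 0.060 to 0.35). With that covariate but 6 tumours all but Jag2 and Dll1 (adjusted p from 0.077 to 0.35) passed. Dll1 lost its call with 10 arrays under the model of 3 groups, scaling to a common median, no filter and quantile normalization (adjusted p from 0.051 to 0.069) and without STAT5ca_177 under the model of 3 groups and scaling to a common median (adjusted p from 0.054 to 0.071). T cells also express Lef1, and 44 of 71 T and NK cell genes fell, a list that itself holds Lef1. The part of these cells was not tested.

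Of 24 apoptosis genes 1 rose and 4 fell, shares near the 4.80% and 11.9% of all genes. The lower count became 2 without gland 4 and 2 under the actin covariate. Bad, a death promoter held in check by survival kinases, had signals of 94.3, 82 and 114 in glands 1, 4 and 6 and of 173 to 290.4 with a median of 229 in the tumours, with no overlap, and changed by 1.18 ± 0.20 (adjusted p = 0.0025), and 1.25 ± 0.18 (adjusted p = 6.3e-04) without STAT5ca_177. Birc3, an inhibitor of apoptosis and target of NF-kappaB, had signals of 1266, 1439 and 1144 in glands 1, 4 and 6 and of 118 to 494 with a median of 266 in the tumours and changed by -2.29 ± 0.42 (adjusted p = 0.0039), and -2.45 ± 0.37 (adjusted p = 9.3e-04) without STAT5ca_177. Pmaip1, the p53 target Noxa, had signals of 275, 308 and 194 in glands 1, 4 and 6 and of 19.3 to 138 with a median of 38.5 in the tumours and changed by -2.40 ± 0.46 (adjusted p = 0.0052), and -2.66 ± 0.30 (adjusted p = 1.9e-04) without STAT5ca_177. Of 17 immediate early genes 3 rose and 3 fell, against 4.80% and 11.9% of all genes. The higher count became 1 without gland 1, 4, 6, STAT5ca_123 or STAT5ca_213 and 1 under the actin covariate, and the lower 0 without gland 1, 4 or 6, 1 without STAT5ca_123, STAT5ca_213, STAT5ca_159 or STAT5ca_171, 0 under the actin covariate, 0 under scaling to a common median, 1 under no filter and 1 under an offset of 1. Ier2, an early response gene, had signals of 364, 343 and 335 in glands 1, 4 and 6 and of 651 to 932 with a median of 720 in the tumours and changed by 1.08 ± 0.18 (adjusted p = 0.0019), and 1.09 ± 0.17 (adjusted p = 0.0011) without STAT5ca_177. Thbd, thrombomodulin of vessel walls, had signals of 392, 371 and 277 in glands 1, 4 and 6 and of 20.3 to 87.2 with a median of 60.5 in the tumours and changed by -2.49 ± 0.35 (adjusted p = 7.8e-04), and -2.60 ± 0.33 (adjusted p = 3.8e-04) without STAT5ca_177. Cd55, a cell-surface inhibitor of complement, changed by -3.07 ± 0.57 (adjusted p = 0.0044), and -2.79 ± 0.44 (adjusted p = 0.0012) without STAT5ca_177, and the complement component C6 by -3.51 ± 0.61 (adjusted p = 0.0029), and -3.60 ± 0.63 (adjusted p = 0.0020) without STAT5ca_177. They belong to the 4 of 19 complement and coagulation genes that fell, a count that became 1 under the actin covariate. Bad, Birc3, Pmaip1, Ier2, Thbd, Cd55 and C6 kept their call when any single array was left out. Birc3, Ier2 and Thbd also passed with 10 arrays and the actin ratio as a covariate, and Bad, Pmaip1, Cd55 and C6 did not (adjusted p from 0.058 to 0.19). Without STAT5ca_177 and with that covariate all but C6 (adjusted p = 0.062) passed.

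Of 29 fibroblast and collagen genes 1 rose and 3 fell, shares not above the 4.80% and 11.9% of all genes. The lower count became 1 without gland 1 or 6, 0 without gland 4, 0 under the actin covariate and 6 under the model of 3 groups. Of 28 proteases and inhibitors 2 rose, Mmp13 and Timp1, a count that was 0 without gland 1, 4 or 6. Mmp13, a collagenase, had 6.5, 3.8 and 2 in the glands, 17 and 18.3 in STAT5ca_169 and STAT5ca_123, 178.2 to 899 in 4 tumours and 2916 in STAT5ca_177. Its change was 4.40 ± 1.34 (adjusted p = 0.047), and 3.82 ± 1.13 (adjusted p = 0.028) without STAT5ca_177. Timp1, an inhibitor of these proteases, rose by 2.002 ± 0.55 (adjusted p = 0.032). Lama2, a laminin chain of muscle and stroma, had signals of 173, 122 and 129.9 in glands 1, 4 and 6 and of 22.8 to 57.5 with a median of 29.7 in the tumours and changed by -1.80 ± 0.28 (adjusted p = 0.0015), and -1.82 ± 0.29 (adjusted p = 0.0011) without STAT5ca_177. Olfml3, a secreted matrix protein, had signals of 68.3, 40.6 and 79 in glands 1, 4 and 6 and of 205 to 1855 with a median of 958 in the tumours, with no overlap, and changed by 3.40 ± 0.64 (adjusted p = 0.0044), and 3.62 ± 0.59 (adjusted p = 0.0013) without STAT5ca_177. C1qtnf3, a secreted relative of adiponectin, had signals of 5.4, 7.7 and 5.4 in glands 1, 4 and 6 and of 20.7 to 269 with a median of 88 in the tumours and rose by 2.55 ± 0.66 (adjusted p = 0.024). Lama2 and Olfml3 kept their call when any single array was left out. Mmp13 lost its call without gland 1, 4, 6, STAT5ca_124, STAT5ca_213, STAT5ca_159 or STAT5ca_171, with an adjusted p of up to 0.16, and Timp1 lost its call without gland 1, 4, 6, STAT5ca_124 or STAT5ca_171, with an adjusted p of up to 0.13. C1qtnf3 lost its call without gland 1, 4 or 6, with an adjusted p of up to 0.096. None of these genes passed with 10 arrays and the actin ratio as a covariate (adjusted p from 0.073 to 0.28). With this covariate in the fit of 6 tumours only Olfml3 and C1qtnf3 passed, the others having adjusted p from 0.066 to 0.30. Mmp13 lost its call with 10 arrays under no filter and an offset at the 40th percentile (adjusted p from 0.054 to 0.084), and C1qtnf3 lost its call with 10 arrays under an offset at the 40th percentile (adjusted p = 0.061).

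Outside the tissue lists the smallest adjusted p-values among rises included those of Mif, Spats2, Niban2, Chaf1b, Ssna1 and Pmepa1. Among falls they included those of Aqp4, Mc2r, Cdo1, Slc38a4, Pde4dip and Hoxd9. These genes were chosen by the size of their p, and others below as the largest changes without overlap. All serve as a description. Mif, the macrophage migration inhibitory factor, a cytokine that many tumours release, had signals of 991, 1066 and 1166 in glands 1, 4 and 6 and of 3278 to 5020 with a median of 3972 in the tumours, and changed by 1.89 ± 0.20 (adjusted p = 1.4e-04), and 1.93 ± 0.20 (adjusted p = 9.7e-05) without STAT5ca_177. Niban2, a regulator of growth and death signals, had signals of 202, 186 and 383 in glands 1, 4 and 6 and of 1035 to 2472 with a median of 1442 in the tumours and changed by 2.62 ± 0.31 (adjusted p = 2.7e-04), and 2.55 ± 0.31 (adjusted p = 2.7e-04) without STAT5ca_177. Spats2 had signals of 75.1, 54 and 68.7 in glands 1, 4 and 6 and of 230.2 to 372 with a median of 315 in the tumours, a change of 2.06 ± 0.21 (adjusted p = 1.1e-04), and 2.04 ± 0.21 (adjusted p = 9.7e-05) without STAT5ca_177. Dyrk3, a kinase that dissolves condensates as cells enter mitosis, had signals of 21.6, 3.4 and 5.6 in glands 1, 4 and 6 and of 30.4 to 212 with a median of 146 in the tumours and changed by 3.0 ± 0.51 (adjusted p = 0.0025), and 3.30 ± 0.31 (adjusted p = 5.4e-05) without STAT5ca_177. Phlda2, an imprinted regulator of placental growth, had signals of 2.1, 0.8 and 1.2 in glands 1, 4 and 6 and of 4 to 85.5 with a median of 39.6 in the tumours and rose by 2.25 ± 0.52 (adjusted p = 0.014). Syce2, a meiotic chromosome protein, rose by 2.52 ± 0.44 (adjusted p = 0.0029). Cdo1, which breaks down cysteine, had signals of 2256, 1510.5 and 1720.3 in glands 1, 4 and 6 and of 28.2 to 110.5 with a median of 50 in the tumours and changed by -4.87 ± 0.33 (adjusted p = 1.6e-05), and -4.85 ± 0.34 (adjusted p = 1.2e-05) without STAT5ca_177. Pde4dip, a scaffold of phosphodiesterase in muscle, had signals of 2879.5, 3666 and 2323 in glands 1, 4 and 6 and of 19.9 to 122.7 with a median of 39.8 in the tumours and changed by -5.93 ± 0.43 (adjusted p = 1.9e-05), and -6.17 ± 0.28 (adjusted p = 2.2e-06) without STAT5ca_177. Aqp4, a water channel of muscle and brain, had signals of 324, 359.7 and 233 in glands 1, 4 and 6 and of 0.3 to 8.5 with a median of 5.2 in the tumours and changed by -4.60 ± 0.25 (adjusted p = 6.0e-06), and -4.65 ± 0.24 (adjusted p = 2.6e-06) without STAT5ca_177. None of the genes described here overlapped between the groups. For those named as the largest changes this was a condition of the choice, so nothing is read from it. Muscle and fat, whose lists fell, also express several of the lower genes, and their part was not tested. Mif, Niban2, Spats2, Dyrk3, Syce2, Cdo1, Pde4dip and Aqp4 kept their call when any single array was left out. Phlda2 lost its call without gland 1, 4 or 6, with an adjusted p of up to 0.070. Mif, Niban2, Spats2, Cdo1, Pde4dip and Aqp4 also passed with 10 arrays and the actin ratio as a covariate, and Dyrk3, Phlda2 and Syce2 did not (adjusted p from 0.072 to 0.29). Under the same covariate but without STAT5ca_177 all of them passed (adjusted p from 5.1e-04 to 0.023).

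The 7 tumours also differed among themselves in genes chosen after their values were seen, given as values with no test. Notch1, a receptor that directs luminal fate, had signals of 347, 492 and 418 in the glands, 1649 to 3132 in STAT5ca_124, STAT5ca_213, STAT5ca_159 and STAT5ca_171, and 78.6 to 301 in the other 3, so that 4 tumours lay above all glands and 3 below them. Nrarp, which Notch signalling induces and which limits it, had 153 to 191 in the glands, 2063 to 3065 in the same 4 tumours and 60.2 to 138 in the other 3. Hey2, a repressor that Notch induces, had 103 to 408 in these 4 and at most 5.8 in the others. Its relative Hey1 was high in STAT5ca_169 too, at 1161. Krt19, a keratin of luminal cells, had 825, 387 and 1425 in the glands, 5298 to 5897 in the 4 and 10.4 to 41.3 in the other 3. Aldh1a3, which makes retinoic acid, and Crabp2, which carries it, followed with 1021 to 1691 and 1153 to 3393 in the 4, against at most 71.7 and 312 in the others. The 4 tumours held both high and low actin ratios, 5.38 and 5.23 in STAT5ca_124 and STAT5ca_213, and 1.79 and 1.76 in STAT5ca_159 and STAT5ca_171.

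Some genes were high in STAT5ca_169, though not all of them there alone. Erbb2, the growth factor receptor HER2, had a signal of 2018 there, 12.7 in STAT5ca_177 and 166 to 371 in the other 5, against 72.5, 70.3 and 80.2 in the glands. Tgfa, a ligand of the EGF receptor, had 419 in STAT5ca_169, 132, 131 and 148 in the glands and at most 110.2 in the other tumours. Ifit1, an interferon-induced antiviral gene, had 1484 in STAT5ca_169, 27 in STAT5ca_177 and 138 to 787 in the others. It rose without STAT5ca_177 (adjusted p = 0.026), a call lost without gland 1, 4 or 6 (adjusted p up to 0.098). The interferon list had a mean level 2.02 above the gland mean in STAT5ca_169, 1.26 in STAT5ca_171 and 0.90 in STAT5ca_159. In the other tumours it ran from -0.33 to 0.21. Of its 23 genes 8 rose and 2 fell without STAT5ca_177, against 13.2% and 18.4% of all genes. The count of 8 became 0 without gland 1, 4 or 6, 3 without STAT5ca_159 or STAT5ca_171 and 13 under the actin covariate. With 10 arrays 1 rose and none fell. Scgb2b27, a secretoglobin of exocrine glands, had 6, 1.8 and 4.7 in the glands, 6403 in STAT5ca_169, 3692 in STAT5ca_177 and 28.6 to 158 in STAT5ca_124, STAT5ca_213, STAT5ca_159 and STAT5ca_171. In STAT5ca_123, Axin2, a Wnt target, had 450.1, above the 166, 177.5 and 129 of the glands, and STAT5ca_159 269, while the other 5 had 11.9 to 25.3. Nkd2, a Wnt inhibitor, had 883 in STAT5ca_123, 687 in STAT5ca_171 and 266 in STAT5ca_159, against 5.9, 22.7 and 9.5 in the glands.

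**Figure D5:**
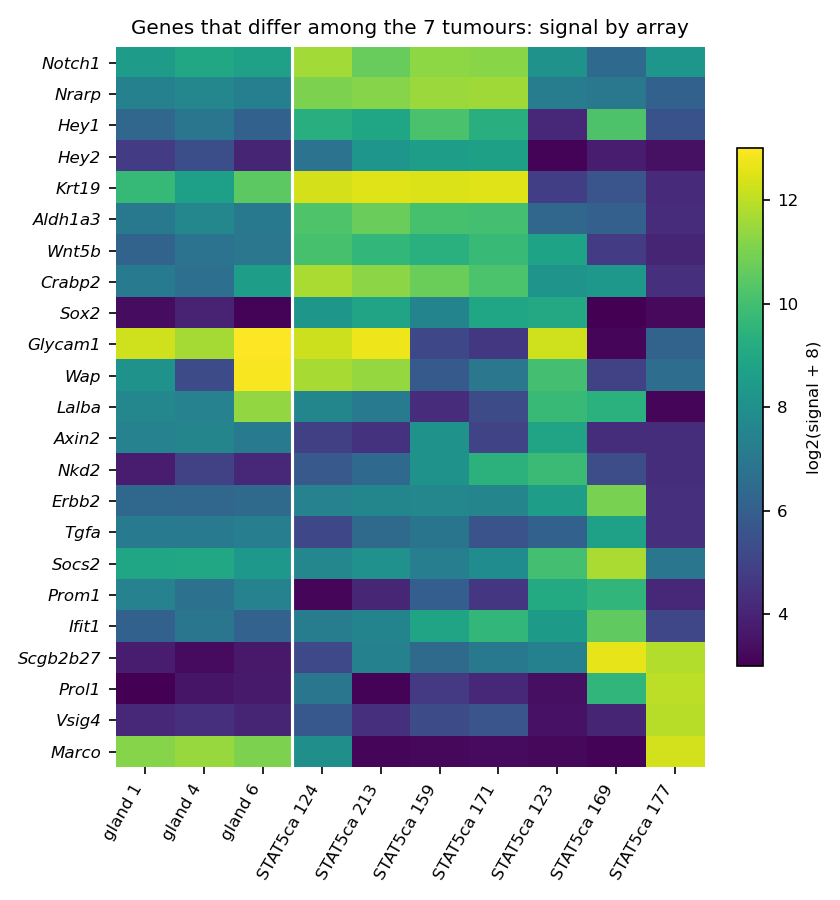
log2(signal + 8) of 23 genes (rows) in 3 glands and 7 tumours, with the 4 tumours of high Notch1 placed after the glands. Notch1, Nrarp, Hey2 and Krt19 were high in the same 4 tumours, Erbb2 was highest in STAT5ca_169 and Vsig4 in STAT5ca_177.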

How the data were processed

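RNA of 3 glands and 7 STAT5ca tumours was measured on Affymetrix mouse arrays. The deposited values are array intensities, which the authors made with MAS5, per the submitters' processing notes, whose version is not given in the sources used here; the trimmed mean signal was 250.08 or 250.09 on every array. Platform annotation gave 1 symbol to 20393 of 22690 probe sets, several to 691 and none to 1606; 64 of the probe sets were controls. After log2(signal + 8), a gene was represented by its brightest probe set over the 10 arrays, and genes above 35.4 (the 40th percentile of all values) on at least 3 arrays were tested, 9003 in all. Tumours and glands were then fitted in R 4.3.3 by limma 3.58.1 (lmFit and eBayes, two-sided, Benjamini-Hochberg, 0.05), with and without STAT5ca_177. The 6 other columns were not used, save in 1 alternative with all 16 arrays. No array was identical to another. The number of arrays limits the precision.

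Named genes were the largest changes without overlap, up to 12 members of each of 57 lists, genes that set STAT5ca_177 apart, and a fixed set of STAT5 and marker genes. The members and lists were chosen with earlier results of these data known, and the gene families after their values were seen. Alternatives were common median scaling, quantile normalization, offsets of 1 and of the 40th percentile, no filter or the 60th percentile (134.8), all probe sets or their mean, a model of 3 groups, the actin ratio, limma with trend and robust, array weights, and each array left out. The fit was tested on simulated data. Promoters came from a RefSeq table, searched with Python 3.11.15.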

Additional observations from a re-analysis of the deposited data

Results flagged for a closer look

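For named genes and list means, the gap from the highest or lowest of the 7 tumours to its neighbour was divided by the range of the tumours on the log2(signal + 8) scale. A ratio above Dixon's 95% critical value for 7 values marked 27 genes and 8 lists. Chance marks about 1 in 20 groups, but many of these genes were chosen for their values, so that the counts are a description. The 18 genes named for what STAT5ca_177 did, Krt8 among them, and the luminal list, which holds Krt8, were not tested, since they set that array apart. Other genes that passed only without STAT5ca_177, such as Rrm2, Cdk4, Egln3, Kit and Gabrp, were tested. List members could be named for passing only without that array, so that its own value helped to fix these marks. In 21 of the genes STAT5ca_177 was the lowest tumour and in 1 the highest. Among epithelial genes STAT5ca_177 was lowest with ratios of 0.651 for Elf5, 0.57 for Gabrp, 0.91 for Irx3, 0.786 for Kit, 0.663 for Perp, 0.596 for Sox4 and 0.697 for Sox9. Among genes of cell division it was lowest with 0.597 for Birc5, 0.614 for Cdc6, 0.586 for Cdca3, 0.659 for Cdk1, 0.583 for Cdk4, 0.687 for Dyrk3, 0.596 for Mki67, 0.849 for Pbk, 0.697 for Rrm2, 0.602 for Tpx2 and 0.595 for Ube2c. It was lowest also with 0.616 for Aldoc, 0.585 for Egln3 and 0.624 for Ghr. It was the highest tumour with 0.688 for Trem2, a gene of macrophages. Other tumours stood apart in Ccnd1 (STAT5ca_123, lowest 0.629), Dll1 (STAT5ca_169, highest 0.682), Dtx1 (STAT5ca_124, highest 0.625), Foxa1 (STAT5ca_159, highest 0.57) and Pole2 (STAT5ca_123, lowest 0.633). Of the list means, STAT5ca_177 was lowest for STAT5 feedback inhibitors and targets (0.619), luminal progenitor (0.607), desmosomes and tight junctions (0.714), mitosis and spindle (0.597) and IGF axis and binding proteins (0.599). The highest tumour stood apart for hormone sensing epithelium (STAT5ca_159, 0.59), macrophages and myeloid cells (STAT5ca_177, 0.636) and white and brown fat (STAT5ca_124, 0.604).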

How the results depend on the processing

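With 10 arrays, the count of 1499 genes moved by over 1.5 times under 2 planned settings, to 587 with the actin ratio as a covariate and to 4647 with array quality weights. Leaving out 1 array gave 695 to 2846 genes. Without STAT5ca_177, the count of 2846 became 1494 with the covariate and 4651 with the weights, and 1690 to 3211 with 1 further array left out, the lowest values coming without gland 4 (1690) and gland 1 (1803). The cause was not tested. Other scalings, offsets, filters, rules for probe sets and variance models kept both counts within 1.5 times, but a common median changed the share of higher calls from 28.8% to 52.9%, and quantile normalization to 40.1%. Of the 1499 genes, 519 also passed with the covariate. No gene named here that passed changed its direction under any setting. With 10 arrays, 191 pairs of a named gene and a setting lost the call and 161 gained one. No paired analysis was possible because the 2 groups share no replicate number. With 3 glands, the spread of the gland group rests on few arrays, and dim signals near the offset of 8 limit the folds of low genes.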
